A study of Homo sapiens and Mus musculus with 69 samples.

Results

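The collagen genes are the 44 genes of the human expression table whose symbol reads COL, a number, A and a number, out of 20516 genes listed, and the 43 genes of the same pattern in the mouse table, out of 18501. Every gene of that pattern was kept, whatever its values. The study asked how NOTCH1 signalling changes small cell lung cancer (SCLC), a neuroendocrine lung tumour, and measured mRNA in bulk by RNA-Seq in 69 libraries that form 23 groups of 3. Of these, 60 came from 4 human SCLC lines and 9 from KP1, a mouse SCLC line that lacks Rb1 and Trp53. The human lines are H82, H524, H69 and COR-L88.

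H82, H524 and H69 were measured as parental cells and as cells with a lentiviral, doxycycline-inducible vector for the active, intracellular part of NOTCH1 (N1ICD), without doxycycline (no dox) or with it (dox). H524 was also measured with an inducible vector for REST, a repressor of neuronal genes, without and with dox. The H82 N1ICD line was further measured with a CRISPR-Cas9 knockout of REST (REST KO) or of STING, the adaptor of cytosolic DNA sensing (STING KO), each without and with dox. COR-L88 carried no NOTCH1 vector and was given the solvent DMSO, TAS1440 (an LSD1 inhibitor) or TAS1440 plus the γ-secretase inhibitor (GSI) BMS-708163, and COR-L88 STING KO cells were given DMSO or TAS1440. KP1 was given DMSO, TAS1440 or TAS1440 plus the GSI DBZ. By the study's methods treatment lasted about 4 weeks or more, only adherent cells were collected in the dox groups, and each knockout used a single target sequence. Induction and selection for adherence therefore cannot be told apart in the dox groups. The paper's protein blots show single-cell clones of the H82 and COR-L88 knockouts, and which clones were sequenced is not given in the labels. The labels do not say whether the 3 libraries of a group came from separate cultures, so p-values measure only the spread between libraries, which may be technical.

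Collagens are trimeric proteins of the extracellular matrix, and each chain carries a stretch of repeated glycine triplets that winds into a triple helix. Fibrillar collagens build the fibres of connective tissue, type IV forms the mesh of the basement membrane under epithelium, and type VI forms beaded filaments. FACIT collagens decorate fibres, transmembrane collagens span the cell membrane, and multiplexins sit in basement membranes. Fibroblasts and other mesenchymal cells are the main source of fibrillar collagen in lung.

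All values below are log2(RPKM + 1), where RPKM is the read count normalised to gene length and library size, and differences are on that scale, which understates the change of low genes. A gene was tested in a line if it read at least 1 in at least 3 of that line's libraries. A higher or lower call needed 2 things in limma, a difference of 1 or more and an adjusted p (Benjamini-Hochberg, across every gene tested in the line) below 0.05. Errors of differences are standard errors (SE), and each group has 3 libraries. Levels of different genes are not compared, because the gene length used for the normalisation could not be established. Estimated relative library size ranged from 0.626 to 1.53 times the median in the human libraries and from 0.872 to 1.07 times in KP1. Read totals are unknown, so it was inferred from low values above 0, assuming exon length in human and gene span in KP1.

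The SD of the difference between 2 libraries of a group, over genes with a mean of at least 6, ranged from 0.0797 to 0.834 over 69 pairs. By these SDs 10 libraries stood apart, each differing from both partners by over 1.5 times as much as the partners from each other. They were library 4 of H82 N1ICD no dox, 8 of N1ICD dox, 30 and 33 of REST KO without and with dox, 34 of H524 REST no dox, 49 of H69 N1ICD no dox, 13 of COR-L88 TAS1440, 41 of COR-L88 STING KO DMSO, and 3 and 9 of KP1 DMSO and TAS1440 plus GSI. Library 37 of H524 REST dox and library 5 of KP1 TAS1440 did not stand apart by this measure but did so for single collagen genes named below. No 2 columns were identical, and all libraries were kept. As a check of the labels, mean NOTCH1 mRNA with dox against without was 4.86 against 1.16 in H82, 9.55 against 1.32 in H82 REST KO, 6.96 against 1.94 in H82 STING KO, 8.06 against 1.20 in H524 and 7.99 against 0.39 in H69. REST mRNA was still read in REST KO, at 4.11 without and 5.26 with dox. STING mRNA (TMEM173) was not lower in H82 STING KO than in H82 with intact STING, at 1.61 against 1.11 with dox. An edit that disrupts a protein need not remove its mRNA, so these values check neither knockout label.

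The lines differed in how many collagen genes they read. Members with a group mean of at least 1 numbered 12 of 44 in parental H82, 24 in parental H524, 17 in parental H69 and 11 in COR-L88 with DMSO. In the N1ICD lines the number was 28 with dox against 14 without in H82, 31 against 21 in H524 and 27 against 18 in H69. In COR-L88 it was 23 with TAS1440 and 17 with TAS1440 plus GSI. COL10A1, COL20A1, COL4A3, COL6A5 and COL6A6, 5 members in all, stayed below 1 in each of the 60 human libraries, while 32 members reached a group mean of 3 and 19 a group mean of 6. COL10A1 is known as the collagen of hypertrophic cartilage.

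**Figure D1:**
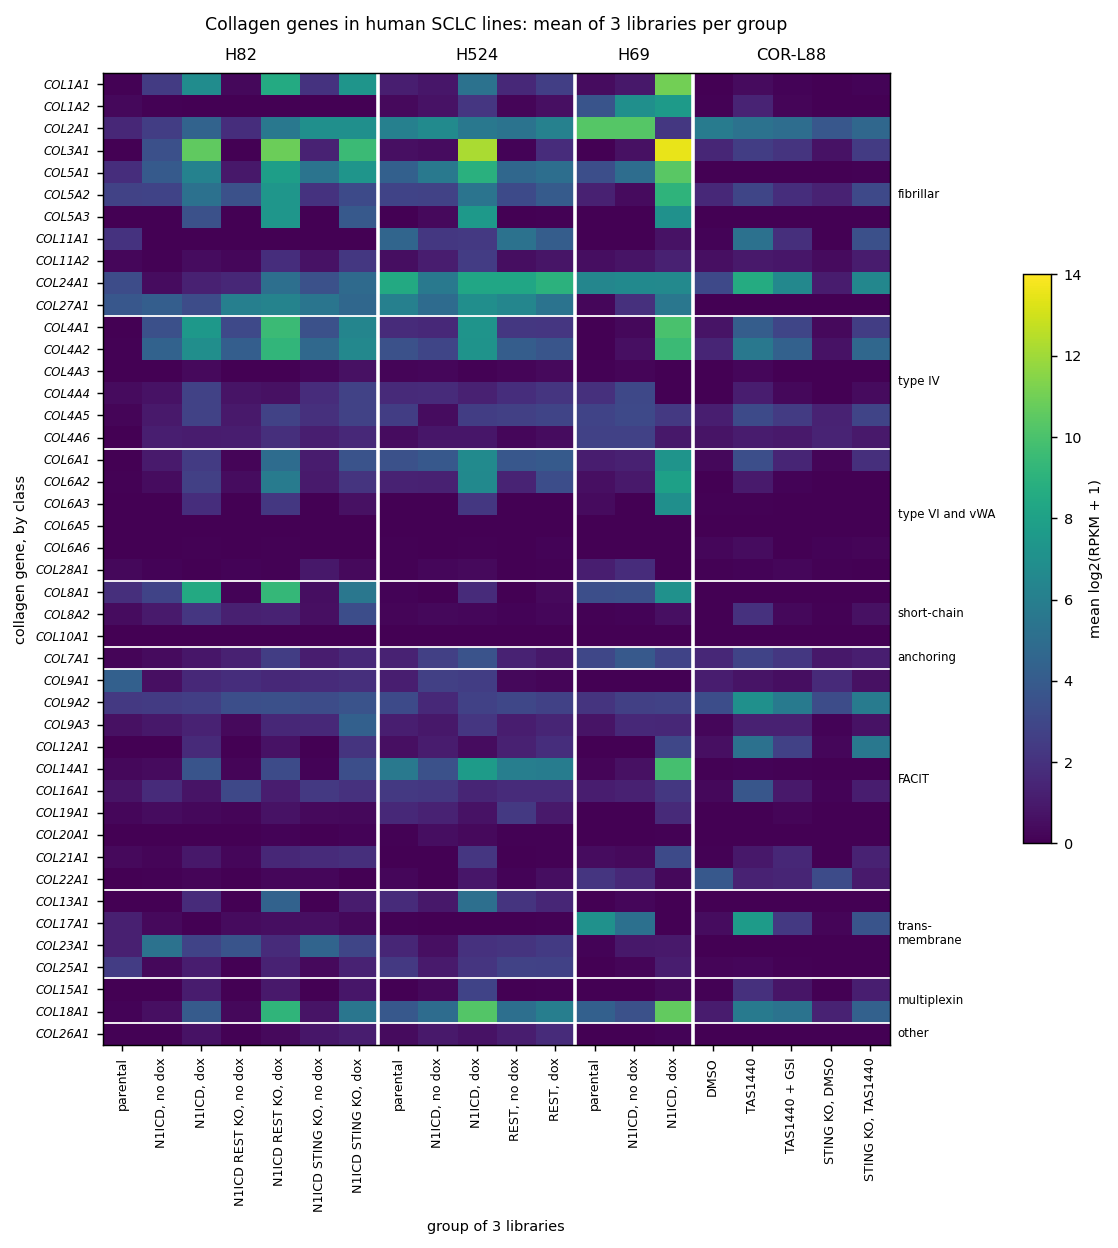
Mean log2(RPKM + 1) of the 3 libraries of each human group (20 groups, by line) for the 44 human collagen genes, ordered by class, on a colour scale from 0 to 14. Members with a mean of at least 1 numbered 28, 31 and 27 in the N1ICD dox groups of H82, H524 and H69, against 14, 21 and 18 without dox, and COL2A1 and COL17A1 were low in H69 with dox.

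More collagen genes were higher than lower with N1ICD in each of the 3 vector lines. In H82, 34 of the 44 members passed the filter, of which 20 were higher and 1 lower with dox, where 14.7% and 12.4% of all 13903 genes tested were higher and lower. In H524, 34 passed, with 25 higher and 0 lower, against 11.4% and 7.19% of 13648 genes. Among the 25, COL24A1, COL25A1, COL4A5 and COL9A2 had dox means that did not exceed those of parental H524. In H69, 32 passed, with 17 higher and 7 lower, against 21.4% and 20.4% of 13580 genes. The median difference of the members tested was 1.53 in H82, 2.03 in H524 and 2.22 in H69, and that of all genes tested was -0.0026, -0.018 and 0.083. Of the higher members, 11 in H82, 12 in H524 and 12 in H69 had a no-dox mean below 1. A member that passed the filter only through its dox libraries had to differ, so these counts describe the members that passed and are no measure of all 44.

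By class, 6 of 10 fibrillar genes tested were higher in H82, 9 of 11 in H524 and 6 of 10 in H69. COL3A1, the gene of type III collagen, which supports skin and vessel walls (GRCh37 chr2:189839099-189877472, plus strand), read 0, 5.06 and 5.26 in the H82 no-dox libraries and 10.93, 9.94 and 10.79 with dox. In H524 it read 0.28, 1.06 and 0 without and 11.99, 12.53 and 12.09 with dox, and in H69 1.86, 0 and 0 without and 13.56, 13.52 and 13.50 with dox. No dox library overlapped a no-dox library in any of the lines, although the H82 no-dox libraries were themselves far apart, with library 4 at 0. The differences were 7.12, SE 0.88, adjusted p = 2.9e-06 in H82, 11.76, SE 0.73, adjusted p = 3.1e-08 in H524 and 12.91, SE 0.43, adjusted p = 1.6e-08 in H69. The value was 5.40 in H82 without library 4 and 13.53 in H69 without library 49.

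COL1A1, which encodes the α1 chain of type I collagen, the main collagen of bone and tendon (chr17:48261462-48278993, minus strand), read 0.34, 3.32 and 3.57 without and 7.06, 6.27 and 7.03 with dox in H82. It read 0.69, 1.29 and 0.62 against 5.27, 5.40 and 5.19 in H524 and 0.84, 1.17 and 0.74 against 11.09, 10.97 and 10.97 in H69. The groups did not overlap in any line. The differences were 4.37, SE 0.57, adjusted p = 5.3e-06 in H82, 4.42, SE 0.23, adjusted p = 4.8e-09 in H524 and 10.10, SE 0.11, adjusted p = 3.3e-11 in H69, and without H82 library 4 the first was 3.34.

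COL1A2, which encodes the α2 chain of the same type I trimer, followed another course. It did not pass the filter in H82. In H524 it read 0.90, 0.98 and 0.24 without and 2.38, 2.70 and 1.65 with dox (1.53, SE 0.26, adjusted p = 0.00047). In H69 it was already high without dox, at 6.52, 7.21 and 7.20, and read 7.64, 7.59 and 7.58 with dox, a difference of 0.63, SE 0.17, adjusted p = 0.0075, which is below the size threshold.

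**Figure D2:**
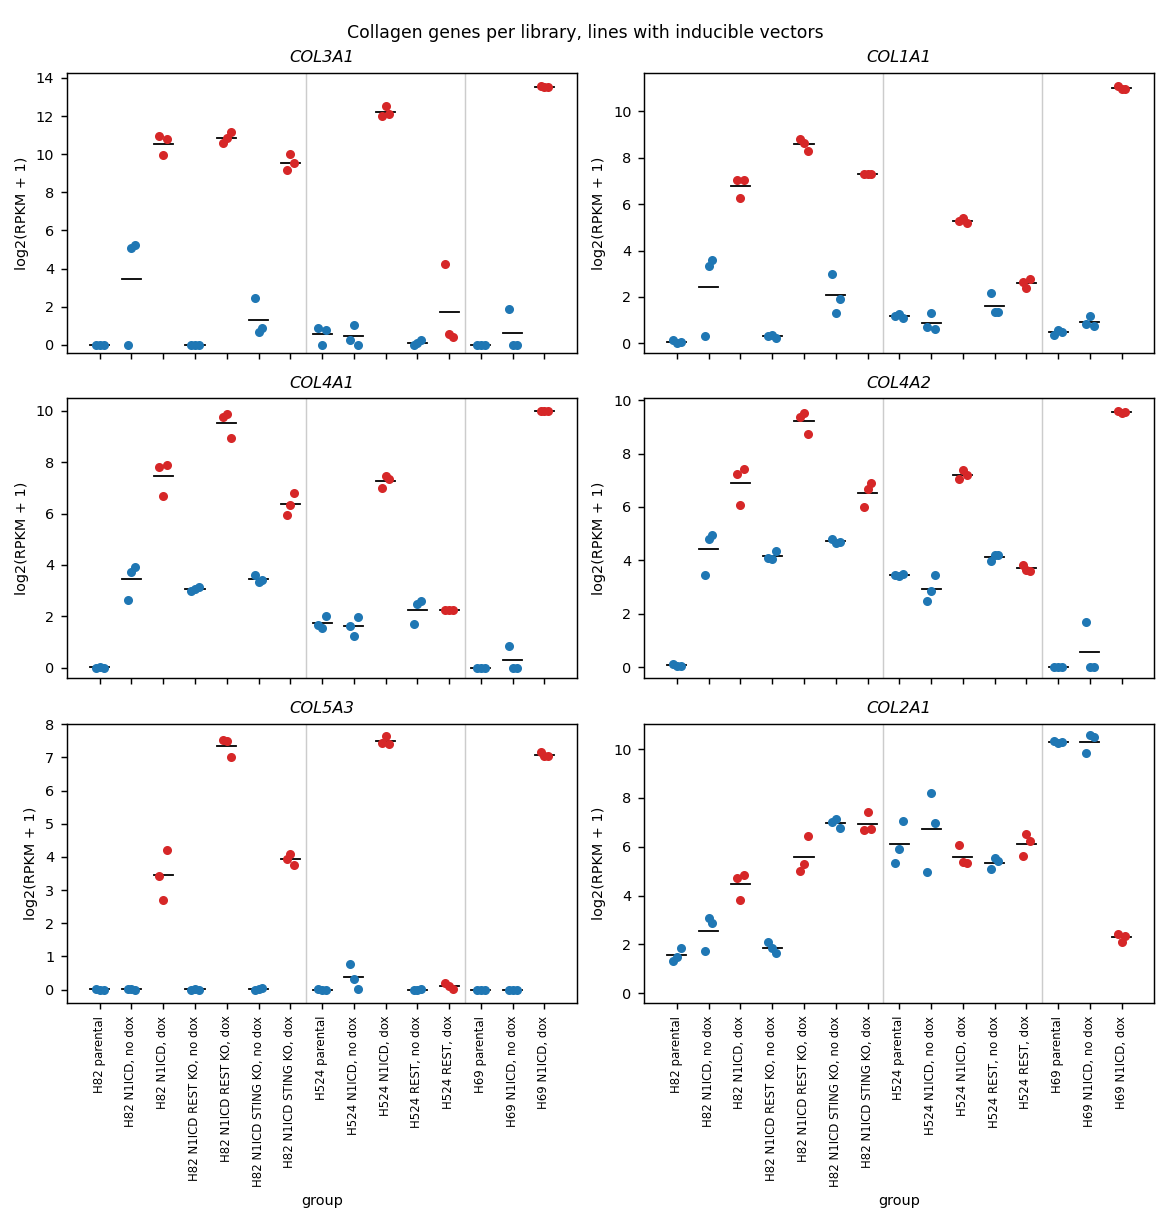
Log2(RPKM + 1) of 6 collagen genes in each library (points) of the H82, H524 and H69 groups, with black lines for the means of 3 libraries, red for dox and blue for no dox or parental cells. The N1ICD dox points of COL3A1, COL1A1, COL4A1, COL4A2 and COL5A3 lie above the no-dox points of the same line, COL2A1 falls to between 2.08 and 2.44 in H69, and in H524 REST dox a single COL3A1 point stands at 4.23.

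The type V genes, whose chains form part of type I and III fibres, were higher in the 3 lines. COL5A3 (chr19:10070237-10121180, minus strand) read 0.02, 0.01 and 0 without and 3.43, 2.69 and 4.22 with dox in H82 (3.44, SE 0.25, adjusted p = 3.2e-09). In H524 it read 0.77, 0.32 and 0.02 against 7.44, 7.64 and 7.40 (7.13, SE 0.17, adjusted p = 1.5e-12). In H69 it was listed at 0 in the no-dox libraries and read 7.16, 7.03 and 7.03 with dox. COL5A3 was thus below 1 in all 9 no-dox libraries, and no groups overlapped. COL5A1 rose by 2.24, 3.23 and 5.38 and COL5A2 by 2.42, 2.64 and 8.70 in H82, H524 and H69. COL5A2 lies tail to tail with COL3A1, with 19151 bases between their annotated ends.

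COL2A1, the collagen gene of cartilage, moved in opposite directions. In H82 it read 1.72, 3.07 and 2.89 without and 4.72, 3.81 and 4.85 with dox (1.90, SE 0.38, adjusted p = 0.00041). In H69 it read 9.82, 10.58 and 10.50 without and 2.44, 2.08 and 2.34 with dox (-8.01, SE 0.19, adjusted p = 1.9e-09), with no overlap. In H524 the groups overlapped, at 4.96, 8.18 and 6.97 against 6.05, 5.39 and 5.33 (adjusted p = 0.2). Of the other fibrillar genes, COL27A1 rose by 1.99 in H524 and 3.65 in H69, COL24A1 rose by 2.58 in H524, and COL11A2, a chain of type XI collagen, rose by 1.35 there. The COL24A1 mean in H524 was 8.49 in parental cells, 5.68 without and 8.26 with dox, so dox did not exceed the parental level. The COL27A1 means there were 6.09, 4.91 and 6.91. COL11A1 read 1.47, 2.94 and 2.32 without and 2.67, 2.47 and 1.86 with dox in H524, with overlap (adjusted p = 0.87), and in H82 it was listed at 0 without and read 0.03, 0.02 and 0.03 with dox.

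Among type IV genes, 4 of 5 tested were higher in H82, 3 of 4 in H524, and in H69 2 of 5 were higher and 2 lower. COL4A1 and COL4A2 encode the chains of the commonest basement membrane trimer. COL4A1 read 2.63, 3.74 and 3.94 without and 7.80, 6.70 and 7.89 with dox in H82 (4.03, SE 0.34, adjusted p = 2.4e-08), and 1.64, 1.21 and 1.97 against 6.98, 7.45 and 7.36 in H524 (5.66, SE 0.25, adjusted p = 8.2e-10). COL4A2 read 3.46, 4.81 and 4.96 against 7.22, 6.06 and 7.44 in H82 (2.49, SE 0.37, adjusted p = 2e-05) and 2.49, 2.87 and 3.46 against 7.04, 7.39 and 7.21 in H524 (4.27, SE 0.21, adjusted p = 2.2e-09). In H69 the pair went from 0.85, 0 and 0 to 9.99, 9.98 and 9.98 and from 1.69, 0 and 0 to 9.59, 9.54 and 9.54, with the only no-dox readings in library 49. Neither gene's groups overlapped in any of the 3 lines.

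COL4A1 (GRCh37 chr13:110801310-110959504, minus strand) and COL4A2 (chr13:110958159-111165556, plus strand) lie head to head, and their annotated spans overlap by 1346 bases. The library kit keeps strand, but whether the counting used it is not given in the sources used here. Their RefSeq promoter windows (GRCh38.p14, 250 bases before to 50 after a start) share 226 bases and are shown because both genes were higher in each line. Each is read 5′ to 3′ on its gene's strand, and the capitals mark the 126 bases between the 2 starts (COL4A1 chr13:110307108-110307407, minus strand, and COL4A2 chr13:110307034-110307333, plus strand).
COL4A1: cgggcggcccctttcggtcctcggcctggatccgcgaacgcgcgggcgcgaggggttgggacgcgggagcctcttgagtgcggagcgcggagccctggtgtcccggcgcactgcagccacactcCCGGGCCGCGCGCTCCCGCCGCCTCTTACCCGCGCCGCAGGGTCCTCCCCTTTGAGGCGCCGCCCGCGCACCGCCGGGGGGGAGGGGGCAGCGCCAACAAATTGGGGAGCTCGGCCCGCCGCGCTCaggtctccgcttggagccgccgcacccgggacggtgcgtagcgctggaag
COL4A2: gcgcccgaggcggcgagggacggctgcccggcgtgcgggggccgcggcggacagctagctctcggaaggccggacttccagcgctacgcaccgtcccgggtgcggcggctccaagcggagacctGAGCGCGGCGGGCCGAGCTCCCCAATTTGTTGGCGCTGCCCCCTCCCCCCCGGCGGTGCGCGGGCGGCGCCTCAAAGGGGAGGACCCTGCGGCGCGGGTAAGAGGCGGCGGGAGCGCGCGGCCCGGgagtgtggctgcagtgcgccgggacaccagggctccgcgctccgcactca

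The 2 windows hold 76.67% and 77.67% G and C, and neither contains TGGGAA, the core letters bound by CSL (RBPJ), the DNA-binding partner of N1ICD, on either strand.

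The other type IV genes form 2 further head-to-head pairs. COL4A5 rose in H82 (1.79, SE 0.28, adjusted p = 4.2e-05) and H524 (2.06, SE 0.21, adjusted p = 4.2e-06), and in H69 it was lower with dox by less than the size threshold (-0.76, SE 0.15, adjusted p = 0.0011). In H524 the COL4A5 mean was 2.55 in parental cells, 0.46 without and 2.52 with dox, so dox did not exceed the parental level. Its neighbour COL4A6, with 341 bases between the starts, had a difference of -0.13, SE 0.30, adjusted p = 0.75 in H82 and fell in H69 from 2.66, 2.76 and 2.78 to 1.05, 0.83 and 0.78 (-1.85, SE 0.09, adjusted p = 1.3e-07). COL4A4, a chain of kidney and lung basement membrane, rose in H82 from 0.54, 0.76 and 0.81 to 3.30, 2.28 and 2.66 (2.04, SE 0.26, adjusted p = 3.9e-06) and fell in H69 from 2.24, 3.47 and 3.36 to 0.06, 0.03 and 0 (-2.99, SE 0.28, adjusted p = 1.1e-05). Its neighbour COL4A3, with 171 bases between the starts, was below 1 in all human libraries and was not tested. It read 0.01, 0.02 and 0.04 without and 0.37, 0.24 and 0.40 with dox in H82, and 0.11, 0.19 and 0.23 without and 0, 0 and 0.01 with dox in H69, so that neither line's groups overlapped and the direction was that of COL4A4 in both.

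COL6A1, COL6A2 and COL6A3, the 3 chains of the common type VI trimer, were higher in the 3 lines. COL6A2 read 0.07, 0.84 and 0.42 without and 2.73, 2.19 and 3.02 with dox in H82 (2.20, SE 0.29, adjusted p = 6e-06), and rose by 5.31 in H524 and 7.01 in H69. COL6A1, which lies 93061 bases upstream on the same strand of chromosome 21, rose by 1.43, 2.88 and 5.91. COL6A3 rose by 1.77 in H82 and 6.93 in H69, and in H524 it was listed at 0 without dox and read 1.58, 2.72 and 2.54 with dox. COL28A1, a related gene, fell in H69 from 1.69, 1.91 and 1.80 to 0, 0.03 and 0.12 (-1.75, SE 0.07, adjusted p = 5.6e-08).

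COL8A1, a short-chain collagen of vessel walls (chr3:99357319-99518070, plus strand), went from 2.37, 2.92 and 3.14 to 9.05, 7.88 and 8.62 in H82 (5.71, SE 0.30, adjusted p = 4.1e-11). It rose by 3.63 in H69, and in H524 it was listed at 0 without dox and read 1.37, 2.09 and 1.75 with dox. Among multiplexins, COL18A1, the source of the fragment endostatin (chr21:46825080-46933634, plus strand), read 0.30, 0.56 and 0.81 without and 4.20, 3.05 and 4.84 with dox in H82 (3.48, SE 0.47, adjusted p = 8.3e-06), and rose by 5.32 in H524 and 7.13 in H69. The groups of both genes were apart in each line. COL15A1 rose by 2.55 in H524 and by 1.04 in H82, where the call was lost without dox library 7 (0.84).

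Of the FACIT genes tested, 2 of 7 were higher in H82, 4 of 8 in H524 and 4 of 8 in H69, with 1 lower in H69. COL14A1, a FACIT collagen of tendon and skin, rose in the 3 lines, from 0.62, 0.22 and 0.37 to 4.08, 3.02 and 3.77 in H82 (3.22, SE 0.28, adjusted p = 4.1e-08), by 4.18 in H524, and from 0.50, 0.58 and 0.84 to 9.91, 9.88 and 9.89 in H69 (9.25, SE 0.10, adjusted p = 2.7e-11). COL12A1, a collagen on the surface of type I fibres, rose in H82 from 0, 0.05 and 0.03 to 2.09, 1.33 and 1.56 (1.64, SE 0.24, adjusted p = 2e-05) and in H69 from 0.02, 0.05 and 0.01 to 3.01, 3.05 and 2.96 (2.98, SE 0.05, adjusted p = 4.9e-10), and had a difference of -0.60, SE 0.26, adjusted p = 0.096 in H524. COL21A1 rose by 2.21 in H524 and 2.77 in H69. COL22A1 fell in H69 (-1.31, SE 0.24, adjusted p = 0.00088).

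COL5A3 and COL12A1 each hold TGGGAA, read on either strand, 2 times in their RefSeq promoter windows. They are shown as members that went from below 1 to above 1 with dox, COL5A3 in H82, H524 and H69 and COL12A1 in H82 and H69 but not in H524. Windows of COL7A1, COL18A1 and COL21A1 also hold it 2 times and are not shown. The capitals mark the matches (GRCh38.p14, COL5A3 chr19:10010455-10010754 and COL12A1 chr6:75206004-75206303, both minus strand).
COL5A3: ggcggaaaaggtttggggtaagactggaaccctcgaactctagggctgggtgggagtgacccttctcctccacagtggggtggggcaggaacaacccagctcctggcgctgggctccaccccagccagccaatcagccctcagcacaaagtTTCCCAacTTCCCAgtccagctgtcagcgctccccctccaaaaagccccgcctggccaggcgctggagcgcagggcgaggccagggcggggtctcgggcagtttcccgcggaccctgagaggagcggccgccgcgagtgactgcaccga
COL12A1: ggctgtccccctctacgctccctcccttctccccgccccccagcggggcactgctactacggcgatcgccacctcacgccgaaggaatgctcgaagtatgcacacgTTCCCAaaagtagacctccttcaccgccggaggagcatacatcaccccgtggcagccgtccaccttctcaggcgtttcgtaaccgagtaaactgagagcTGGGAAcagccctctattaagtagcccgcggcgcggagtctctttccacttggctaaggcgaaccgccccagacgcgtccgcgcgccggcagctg

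A match to 6 letters is a description and not a binding site. It stood in 24.032% of 35116 RefSeq windows of this length and in 7 of the 44 windows that belong to 32 collagen genes (15.909%). On both strands, TGANTCA (AP-1) stood in 7.709% of all windows and 1 collagen window, GGAATG (TEAD) in 14.033% and 3, and TATAAA in 11.53% and 8.

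Of 3 transmembrane genes tested, 1 was higher and 1 lower in H82 and 3 were higher in H524, and of 2 tested in H69 1 was lower. In H524 the COL25A1 mean was 2.31 in parental cells, 1.01 without and 2.16 with dox, so dox did not exceed the parental level. COL13A1, a collagen of the neuromuscular junction, rose by 1.69 in H82 and 4.21 in H524. COL23A1 fell in H82 from 4.55, 5.70 and 5.64 to 2.70, 2.54 and 3.19 (-2.48, SE 0.56, adjusted p = 0.0013) and rose in H524 from 0.21, 1.27 and 0.30 to 1.98, 1.99 and 1.97 (1.39, SE 0.34, adjusted p = 0.0062). Its parental mean was 1.24 in H82, below both vector groups, and 1.53 in H524, between the no-dox and dox means. COL17A1, the collagen of epithelial hemidesmosomes (chr10:105791044-105845638, minus strand), read 5.56, 4.79 and 5.20 without dox in H69 and was listed at 0 in the 3 dox libraries. COL7A1, of the fibrils that anchor epithelium, fell in H69 by 1.06, a call lost without no-dox library 50 (-0.93) or 51 (-0.89) or dox library 53.

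Taking the 3 N1ICD inductions and TAS1440 in COR-L88, COL3A1, COL4A1, COL4A2, COL5A2, COL6A1 and COL18A1 were higher in all 4 lines (6 members). The COR-L88 calls of COL3A1 and COL5A2 were lost after quantile normalization or centring and without TAS1440 library 14 or 15, which leaves 4 members. A further 10 were higher in 3 lines, 7 in 2, 11 in 1 and 10 in 0, and 5 members were tested in no line. Of all genes tested, 14.7% were higher in H82, 11.4% in H524, 21.4% in H69 and 15.3% in COR-L88. How many of all genes were higher in several lines was not counted, so the member counts across lines are only a description. Lower calls fell on 8 members in at least 1 line, and 5 of these, COL17A1, COL23A1, COL2A1, COL4A4 and COL7A1, were higher in another line.

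Mean REST mRNA in the H524 line with the REST vector was 9.01 with dox against 4.99 without. No member of the 34 tested was called with dox (2 without no-dox library 34), where 1.28% and 0.586% of all genes tested were higher and lower. An unadjusted p under 0.05 in limma was found for 8 members. Here and below, the share of all genes under that unadjusted threshold was not counted, so such counts cannot be read against the shares given. The member median was 0.21. COL1A1 read 2.15, 1.35 and 1.36 without and 2.62, 2.39 and 2.79 with dox, without overlap, and its difference was just below the size threshold (0.98, SE 0.23, adjusted p = 0.038). COL11A1 read 5.03, 5.41 and 5.34 without and 3.99, 4.17 and 4.24 with dox, also without overlap (-1.13, SE 0.35, adjusted p = 0.1). COL3A1 read 0, 0.13 and 0.26 without and 4.23, 0.58 and 0.44 with dox (adjusted p = 0.27), and only library 37 was high. REST mRNA read 6.87, 10.72 and 9.43 in the same dox libraries, lowest in library 37.

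The N1ICD response exceeded the REST response for 21 members and was below it for 1, by the interaction term, against 9.88% and 5.68% of all genes tested. The 2 responses differed by 7.02, SE 0.23, adjusted p = 1.6e-10 for COL5A3, 5.68, SE 0.35, adjusted p = 7.6e-08 for COL4A1 and 10.13, SE 1.04, adjusted p = 1.1e-05 for COL3A1, or 11.37 without library 37. COL12A1 was the member below (-1.13, SE 0.37, adjusted p = 0.046), with 1.26, 0.42 and 1.52 without and 0.35, 0.64 and 0.41 with dox in the N1ICD line and 1.31, 1.36 and 1.22 and 2.15, 1.32 and 2.00 in the REST line, where the groups overlap.

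In H82 REST KO, 22 members were higher and 2 lower with dox, against 16.2% and 13.7% of all genes tested, with a member median of 1.69. Of these higher members, 16 had a no-dox mean below 1, so the limit given above for members that passed only through dox libraries holds here too. Between the dox groups, 15 members were higher and 1 lower in REST KO than in intact cells, against 9.44% and 8.21% of all genes, with medians of 0.80 for the members and -0.059 for all genes. The dox response was larger in REST KO for 14 members and smaller for 1, against 7.46% and 5.46% of all genes.

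COL5A3 read 0, 0.03 and 0 without and 7.53, 7.51 and 7.02 with dox in REST KO, where intact cells with dox read 3.43, 2.69 and 4.22, and the responses differed by 3.90, SE 0.35, adjusted p = 5.6e-07. COL18A1 read 0.21, 0.50 and 0.11 without and 9.72, 10.02 and 7.75 with dox in REST KO, a response that differed by 5.41, SE 0.67, adjusted p = 1.8e-05. With dox, both genes were apart from intact cells in all libraries, and without dox the groups overlapped. Without REST KO dox library 33 the responses differed by 4.07 and 6.12. COL6A2 reached 6.43, 5.78 and 5.22 in REST KO with dox (dox groups compared, 3.17, SE 0.29, adjusted p = 1.8e-07). COL24A1, a fibrillar gene, reached 5.34, 5.50 and 4.50 against 1.24, 0.74 and 1.84 (3.84, SE 0.51, adjusted p = 1.3e-05). COL4A1 and COL4A2 were higher in REST KO with dox by 2.07 and 2.30, and COL6A1 by 2.47.

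The starting levels of some members also differed between intact and REST KO cells. COL8A1 read 0.47, 0 and 0 without dox in REST KO and 9.16, 9.43 and 9.33 with dox, and the dox groups differed by 0.79, SE 0.30, adjusted p = 0.043, below the size threshold. COL3A1 was listed at 0 in REST KO without dox and read 10.61, 10.86 and 11.14 with dox (dox groups compared, 0.31, SE 0.88, adjusted p = 0.81). COL5A1 went from 0.92, 0.76 and 0.96 to 8.75, 8.64 and 6.21 in REST KO and from 3.46, 4.17 and 4.27 to 6.47, 5.50 and 6.65 in intact cells, and its responses differed by 4.75, SE 0.68, adjusted p = 8.2e-05, while its dox groups overlapped in 1 library (1.66, SE 0.48, adjusted p = 0.011).

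COL4A4 was the member with a smaller response, at 0.63, 0.66 and 0.91 without and 0.44, 0.47 and 1.01 with dox in REST KO, against 3.30, 2.28 and 2.66 in intact cells with dox (responses compared, -2.13, SE 0.37, adjusted p = 0.00051). NOTCH1 mRNA with dox was also higher in REST KO, at 8.75, 9.15 and 10.74 against 4.75, 4.26 and 5.56, without overlap. The knockout, any difference between clones and the NOTCH1 level cannot be told apart in these comparisons.

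**Figure D3:**
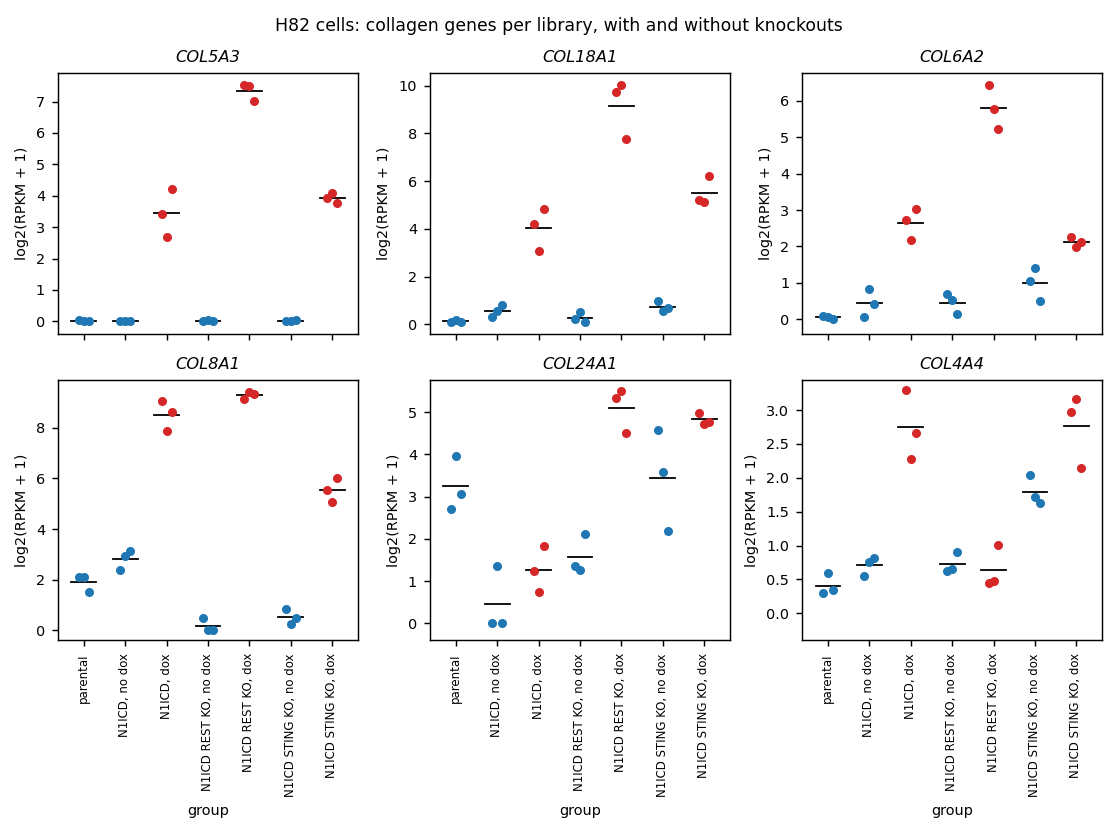
Log2(RPKM + 1) of 6 collagen genes in each library (points) of the 7 H82 groups, with black lines for the means of 3 libraries, red for dox and blue for the other groups. COL5A3, COL18A1 and COL6A2 are highest in REST KO with dox, COL24A1 is high with dox in both knockouts, COL8A1 is lowest of the dox groups in STING KO, and COL4A4 stays at or below 1.01 in REST KO.

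In H82 STING KO, 19 members were higher and 1 lower with dox, against 12.2% and 8.07% of all genes tested, with a member median of 1.09. Of these higher members, 10 had a no-dox mean below 1, and the same limit holds. Between the dox groups, 9 were higher and 4 lower in STING KO than in intact cells, against 7.72% and 8.75%. COL24A1 read 4.99, 4.73 and 4.78 in STING KO with dox (3.56, SE 0.51, adjusted p = 4.8e-05), but was also read without dox, at 4.58, 3.58 and 2.19. COL9A3, a chain of cartilage type IX collagen, read 4.43, 4.54 and 3.96 against 1.63, 0.80 and 1.59 (2.97, SE 0.31, adjusted p = 2.1e-06). NOTCH1 mRNA with dox was also higher in STING KO, at 5.97, 7.41 and 7.48 against 4.75, 4.26 and 5.56, without overlap. The knockout, any difference between clones and the NOTCH1 level cannot be told apart here either. COL8A1 was lower, at 5.53, 5.08 and 6.02 (-2.98, SE 0.30, adjusted p = 1.4e-06), and so was COL5A2, at 2.82, 3.27 and 3.37 against 5.51, 4.63 and 5.54 (-2.07, SE 0.36, adjusted p = 0.00029). COL8A1 was already lower without dox, at 0.85, 0.27 and 0.48 in STING KO against 2.37, 2.92 and 3.14 in intact cells, and its responses were not called different. COL5A2 read 2.09, 1.61 and 2.45 against 2.16, 3.14 and 3.11 without dox, with overlap.

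The dox response was larger in STING KO for 3 members and smaller for 1, against 3.91% and 3.21% of all genes tested. An unadjusted p under 0.05 in limma was found for 11 members, without a share of all genes at that threshold. COL9A3 went from 2.18, 1.72 and 1.02 to 4.43, 4.54 and 3.96 in STING KO, a response that differed by 2.25, SE 0.43, adjusted p = 0.0029. COL2A1 was high in STING KO in either state, at 7.02, 7.12 and 6.75 without and 6.69, 7.43 and 6.72 with dox, and its response was the smaller one (-1.91, SE 0.53, adjusted p = 0.03), a call that 7 of the 12 fits leaving out 1 library lost, with values from -1.89 to -1.50. COL8A2 and COL11A2 had larger responses (1.47 and 1.21), the first a call lost in 8 of the 12 fits. COL3A1 rose in STING KO from 2.44, 0.66 and 0.88 to 9.18, 9.99 and 9.51, and its responses differed by 1.12, SE 1.25, adjusted p = 0.64.

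In COR-L88 with TAS1440, 17 of 23 members that passed the filter were higher and 1 lower than with DMSO, against 15.3% and 7.46% of 13134 genes tested, with a member median of 1.96. Of the higher members, 9 had a DMSO mean below 1. After quantile normalization or centring of the libraries on their median the median of all genes was -0.14 and -0.13, and 14 members were higher and 1 lower, while higher calls made up 56.0% and 57.4% of all calls in place of 67.2%.

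COL17A1 read 0.42, 0.32 and 0.60 with DMSO and 7.38, 7.58 and 8.13 with TAS1440 (7.25, SE 0.51, adjusted p = 8.8e-08), where H69 with N1ICD had it listed at 0. COL11A1, a minor fibrillar collagen, read 0.27, 0.09 and 0.13 against 5.63, 4.86 and 5.11 (5.04, SE 0.28, adjusted p = 1.3e-08). COL24A1 read 3.12, 2.68 and 3.51 against 7.77, 8.63 and 9.43 (5.50, SE 0.59, adjusted p = 3.7e-06). None of these groups overlapped. COL3A1, by contrast, read 1.66, 1.11 and 1.68 against 2.03, 2.93 and 2.70 (1.07, SE 0.32, adjusted p = 0.011), a call lost without DMSO library 11 (0.88) or TAS1440 library 14 (0.88) or 15 (0.99). COL5A2 was higher by 1.28 with overlapping groups, 1.18, 2.02 and 1.72 against 1.73, 3.28 and 3.73, a call lost in 4 of 6 such fits (without library 10, 12, 14 or 15, at 1.05, 1.32, 1.09 and 0.87).

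COL12A1 read 0.93, 0.48 and 0.30 with DMSO and 5.34, 5.55 and 4.82 with TAS1440 (4.67, SE 0.28, adjusted p = 2.4e-08), and the FACIT genes COL9A2 and COL16A1 rose by 3.69 and 3.42. COL4A1 read 0.87, 0.69 and 0.70 against 3.79, 4.61 and 3.93 (3.36, SE 0.18, adjusted p = 8.2e-09) and COL4A2 1.33, 1.41 and 1.58 against 5.00, 6.23 and 5.54 (4.15, SE 0.25, adjusted p = 2.5e-08). COL18A1 rose by 4.65, COL6A1 by 3.06, COL8A2 by 1.97 and COL7A1 by 1.26. COL22A1, a collagen of tissue junctions, was the single member that fell, from 4.26, 3.76 and 3.60 to 1.27, 1.35 and 1.44 (-2.52, SE 0.21, adjusted p = 3.7e-07).

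A GSI blocks the cleavage that activates Notch receptors. TAS1440 alone had 11 members higher and 0 lower than TAS1440 plus GSI, against 10.4% and 4.32% of all genes tested, with a member median of 1.08. The member counts stood after quantile normalization or centring, while higher calls made up 60.0% and 58.8% of all calls in place of 70.6%. TAS1440 plus GSI in turn had 12 members higher and 1 lower than DMSO, against 5.62% and 3.40%, and 7 of the higher members had a DMSO mean below 1. These comparisons share libraries.

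COL17A1 read 2.87, 2.04 and 2.06 with the GSI, below TAS1440 alone by 5.37, SE 0.51, adjusted p = 4.6e-06. COL11A1 read 2.57, 1.45 and 1.72 (3.28, SE 0.28, adjusted p = 2.5e-06), COL16A1 1.09, 1.17 and 0.64 (2.77, SE 0.28, adjusted p = 7.1e-06) and COL12A1 3.39, 2.51 and 2.26 (2.52, SE 0.28, adjusted p = 1.5e-05). The GSI group lay below TAS1440 alone in every library for these 4 genes. COL18A1 read 6.10, 5.07 and 4.90 with the GSI and 5.07, 6.34 and 5.71 without (0.35, SE 0.33, adjusted p = 0.41), and COL22A1 1.64, 1.35 and 1.36 and 1.27, 1.35 and 1.44 (-0.10, SE 0.21, adjusted p = 0.73), so both overlapped. COL4A1 and COL4A2 differed by 1.19 and 1.22, and both calls were lost without TAS1440 library 14 (0.94 and 0.91). NOTCH1 mRNA was higher with the GSI, at a mean of 6.73 against 2.35.

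**Figure D4:**
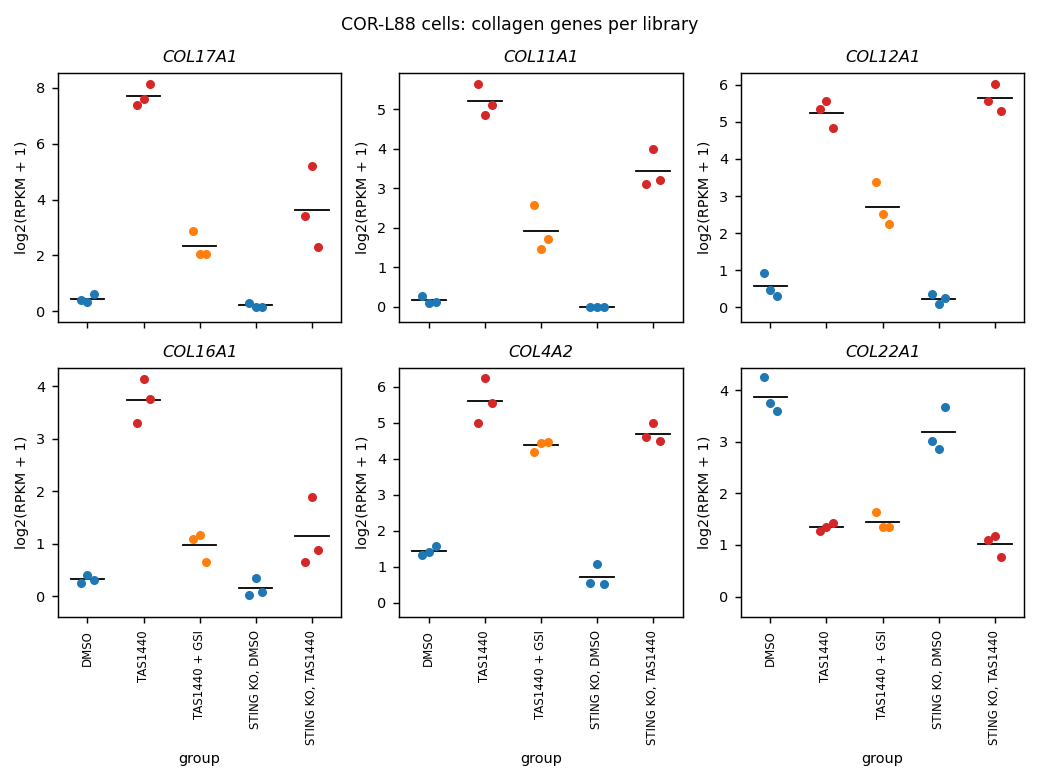
Log2(RPKM + 1) of 6 collagen genes in each library (points) of the 5 COR-L88 groups, with black lines for the means of 3 libraries, blue for DMSO, red for TAS1440 and orange for TAS1440 plus GSI. COL17A1, COL11A1, COL12A1 and COL16A1 are lower with the GSI than with TAS1440 alone, and COL22A1 is low in every group given TAS1440.

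COR-L88 STING KO cells had 14 members higher and 2 lower with TAS1440 than with DMSO, against 10.2% and 5.79% of all genes tested, with a member median of 1.49. Of these higher members, 9 had a DMSO mean below 1. Between the TAS1440 groups, 0 members were higher and 9 lower in STING KO than in intact cells, against 1.48% and 5.06%, with medians of -0.77 for the members and -0.074 for all genes. After quantile normalization or centring the member counts stood, and higher calls made up 34.7% and 37.2% of all calls in place of 22.6%. COL17A1 read 3.40, 5.19 and 2.30 in STING KO with TAS1440 (-4.06, SE 0.51, adjusted p = 0.00015), COL16A1 0.66, 1.89 and 0.88 (-2.59, SE 0.28, adjusted p = 4.8e-05) and COL4A1 2.52, 2.77 and 2.29 (-1.58, SE 0.18, adjusted p = 6.3e-05). COL12A1 read 5.57, 6.01 and 5.30, overlapping intact cells (0.39, SE 0.28, adjusted p = 0.33).

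The TAS1440 response was smaller in STING KO for 6 members and larger for 0, against 0.921% and 3.31% of all genes tested higher and lower, namely COL17A1 (-3.82, SE 0.72, adjusted p = 0.0085), COL16A1, COL11A1, COL8A2, COL6A1 and COL4A1. Leaving out 1 library at a time lost the call in 7 of 12 fits for COL11A1, 3 for COL6A1 and 1 for COL4A1. At a pseudocount of 0.1 in place of 1 the number was 3, and the share of all calls that were higher was 33.9% in place of 21.8%. After centring that share was 34.6%. With TAS1440, mean NOTCH1 was 4.11 in STING KO against 2.35 in intact cells and mean TMEM173 1.07 against 2.20, and their part in these differences was not tested. The knockout and any difference between clones cannot be told apart in COR-L88 either.

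In KP1 the scale differed from that of the human lines, with a summed RPKM of 127599 to 143996 per library against 1202460 to 2331976. The lowest value above 0 was that of a single read for 61.82% of 2999 genes if reads had been divided by the whole genomic span, introns included, and for 19.31% if divided by the exons. Among human values, 28.41% of 6136 genes met a single read over the exons. The size of a single read was itself estimated from low values, over the span in KP1 and over the exons in human. These shares therefore favour those lengths and do not decide which length was used. Of 43 members, 9 passed the filter and 23 stayed below 1 in all 9 libraries. Values rescaled from span to exons, an alternative chosen after seeing the data, let 15 members pass.

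With TAS1440, 6 of the members tested were higher and 0 lower than with DMSO, where 9.09% and 9.70% of 8260 genes were higher and lower, and the 6 higher members had a DMSO mean below 1. Against TAS1440 plus GSI, 6 were higher and 1 lower, against 8.50% and 8.00%, and the 6 higher members had a mean below 1 with the GSI added. Between TAS1440 plus GSI and DMSO no member was called in limma, against 0.460% and 0.751%. For 2 members the unadjusted p was under 0.05, without a share of all genes at that threshold. With rescaled values the members called, in either direction, numbered 12, 13 and 1 in these 3 comparisons. On that scale 11935 genes were tested, so the shares above do not apply to these counts.

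Col12a1 read 0.01, 0.01 and 0.02 with DMSO, 7.40, 7.64 and 5.64 with TAS1440 and 0.02, 0.05 and 0 with the GSI added (6.87, SE 0.43, adjusted p = 7.1e-06, TAS1440 against TAS1440 plus GSI). Col4a1 read 0.81, 0.78 and 0.56, 3.46, 4.10 and 3.35 and 1.04, 0.95 and 0.63 in the same groups (2.92, SE 0.21, adjusted p = 9.2e-06, against DMSO). Col4a2 read 0.59, 0.63 and 0.35, 2.76, 2.98 and 2.84 and 0.84, 0.69 and 0.56 (2.34, SE 0.13, adjusted p = 3e-06, against DMSO). The TAS1440 libraries of these 3 genes lay above all others.

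Col6a1 and Col6a2 had 1 low TAS1440 library, number 5. Col6a1 read 7.08, 2.51 and 7.21 with TAS1440 against 0.03, 0.02 and 0.01 with DMSO (5.58, SE 1.02, adjusted p = 0.0023, or 7.12 without library 5). Col6a2 read 5.78, 1.81 and 6.36 with TAS1440 and was listed at 0 with DMSO. Col3a1 did not pass the filter, at 8.07, 0.13 and 6.16 with TAS1440 and at most 0.02 elsewhere. Col2a1 was led by library 6, at 1.34, 1.82 and 6.31, and its call against DMSO (3.13, SE 1.05, adjusted p = 0.042) was lost when any DMSO library was left out. Col9a2 was lower with TAS1440 (0.36, 1.48 and 2.92) than with the GSI added (3.66, 3.11 and 3.08), by -1.70, SE 0.51, adjusted p = 0.032, a call that 5 of the 6 fits leaving out 1 library lost, with a value of -1.08 without TAS1440 library 4.

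**Figure D5:**
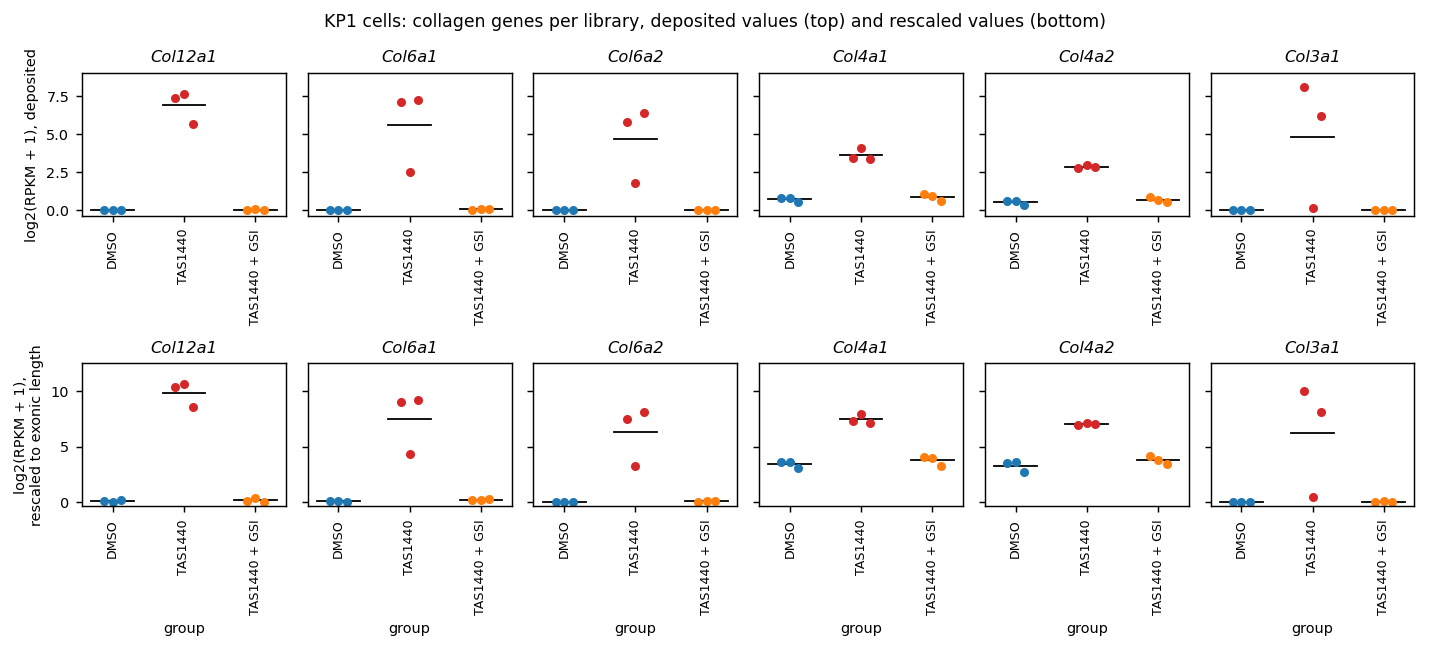
Log2(RPKM + 1) of 6 collagen genes in each library (points) of the 3 KP1 groups, as deposited (top) and rescaled to exonic length (bottom), with black lines for the means of 3 libraries, blue for DMSO, red for TAS1440 and orange for TAS1440 plus GSI. The TAS1440 points lie above the other groups, with library 5 lower than the rest for Col6a1, Col6a2 and Col3a1.

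Without dox, the vector lines already differed from parental cells, and these comparisons share the no-dox libraries with those above. In H82, 7 members were higher and 4 lower in N1ICD no-dox cells, against 3.75% and 2.66% of all genes tested. COL4A2 read 0.11, 0.04 and 0.04 in parental and 3.46, 4.81 and 4.96 in no-dox cells (4.35, SE 0.37, adjusted p = 1.7e-07), and COL9A1 went from 3.79, 5.24 and 3.91 to 0.24, 0.55 and 0.98 (-3.72, SE 0.47, adjusted p = 2.7e-05), while mean NOTCH1 was 0.02 and 1.16. In H524, 3 were higher and 6 lower, against 4.94% and 7.16%, among them COL14A1 (-2.16, SE 0.41, adjusted p = 0.0023). COL24A1, COL25A1, COL27A1, COL4A5 and COL9A2 also had lower no-dox than parental means there, so their dox differences started from below the parental level. In H69, 4 were higher and 1 lower, against 3.02% and 2.25%, and COL1A2 went from 3.74, 3.66 and 3.55 to 6.52, 7.21 and 7.20 (3.32, SE 0.17, adjusted p = 5e-06). In the H524 REST line no member was called against parental cells in limma, against 0.0220% and 0.242%. For 5 members the unadjusted p was under 0.05, without a share of all genes at that threshold.

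Genes that fold, process, cross-link and bind collagen were counted by 5 lists, to be read against the 14.7% and 12.4% of all genes tested that were higher and lower in H82, 11.4% and 7.19% in H524, 21.4% and 20.4% in H69, 15.3% and 7.46% in COR-L88 with TAS1440 and 9.09% and 9.70% in KP1 with TAS1440. Of 17 modification and folding genes, 16 were tested in each human line, and 3 were higher in H82, 3 in H524 and 11 in H69 with N1ICD and 12 in COR-L88 with TAS1440, with 0 lower, so that the H82 and H524 counts are near those shares. SERPINH1, the collagen chaperone HSP47, rose in H69 (5.09, SE 0.48, adjusted p = 1.1e-05), H524 (2.09, SE 0.63, adjusted p = 0.021) and COR-L88 (2.94, SE 0.14, adjusted p = 3.2e-09). Of 12 secretion and processing genes, 2 of 12 tested were higher and 3 lower in H82, 0 and 1 of 11 in H524, 5 and 1 of 11 in H69, and 5 and 1 of 10 in COR-L88. Its higher calls were near the share of all genes in H82, where the list median was 0.0081, and 0 in H524. ADAMTS2, which trims the amino end of fibrillar procollagens, fell in H82 (-2.87, SE 0.50, adjusted p = 0.00011), and BMP1, which trims the carboxy end, rose there (2.44, SE 0.22, adjusted p = 5e-08). PCOLCE, an enhancer of BMP1, rose by 3.23 in H82 and 3.72 in H69.

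Of 6 cross-linking genes, all tested in the N1ICD lines and 5 in COR-L88, 3 were higher in H82, 1 in H524, 4 in H69 and 2 in COR-L88, with 1 lower in H524 and 1 in H69. TGM2, a transglutaminase, rose by 3.29 in H82 and 4.45 in H524, LOXL1 by 4.23 in H69, and LOX by 3.44 in COR-L88. Of 10 collagen receptor genes, 4 of 6 tested were higher in H82, 4 of 7 in H524, 5 of 8 in H69 and 4 of 6 in COR-L88, with 2 lower in H69 and 1 in COR-L88. DDR2, a receptor kinase for fibrillar collagen, rose by 3.17, 5.87 and 6.53 in the N1ICD lines and was the 1 gene of the 5 lists called with REST in H524 (2.09, SE 0.50, adjusted p = 0.04). ITGA1, the partner chain of integrin β1 for type IV collagen, rose by 6.00, 2.10, 5.51 and 1.41 in H82, H524, H69 and COR-L88. ITGA2, a chain of a collagen-binding integrin, rose by 5.95 in COR-L88.

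Of 8 collagen-binding matrix genes, 5 of 7 tested were higher in H82, 5 of 5 in H524, 6 of 6 in H69 and 3 of 4 in COR-L88, with 0 lower. FN1, which encodes fibronectin, rose by 2.94, 8.96, 7.60 and 4.20 in these lines, SPARC, which binds collagen, by 2.31, 4.39, 11.01 and 2.45, and THBS1, which encodes thrombospondin, by 6.33, 3.92, 6.00 and 5.71. In KP1 with TAS1440, 7 of 13 modification, 1 of 5 processing, 4 of 4 cross-linking, 3 of 4 receptor and 5 of 5 matrix genes tested were higher than with DMSO and 0 lower, among them Fn1 (7.20, SE 0.23, adjusted p = 2.2e-07).

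Markers of cell state also changed, but not in every group in which collagen genes did. The summed RPKM of 7 neuroendocrine genes was 9028 to 22374 without and 258 to 451 with dox in H82, 12331 to 25744 and 833 to 1745 in H524, and 1245 to 2353 and 133 to 138 in H69. With REST in H524 it was 15409 to 28850.4 without and 24927 to 39623 with dox. In COR-L88 it was 1099 to 1409 with DMSO, 584 to 705 with TAS1440 and 974 to 1036 with the GSI added. A sum is led by the genes with the largest values. Of these 7 genes, 3, 7, 4 and 6 still had a mean of at least 1 in H82, H524 and H69 with dox and COR-L88 with TAS1440. The sum over 7 fibroblast genes, of which DCN and LUM are also in the matrix list, was 2.30 to 5.30 without and 71.3 to 98.6 with dox in H82, 35.8 to 50.6 and 149 to 173 in H524, and 11.3 to 16.0 and 484 to 496 in H69. It was 13.5 to 22.2 in parental H82. With the REST vector in H524 it was 10.1 to 16.4 without and 8.40 to 10.1 with dox. In KP1 the neuroendocrine sum was 273 to 363 with DMSO, 6.03 to 49.8 with TAS1440 and 350.4 to 386 with the GSI added, and the fibroblast sum 1.69 to 5.11, 18.1 to 39.5 and 2.31 to 11.1. In COR-L88 the fibroblast sum was 0.534 to 0.914 with DMSO, 3.10 to 3.96 with TAS1440 and 0.632 to 1.03 with the GSI added. Of the 7 fibroblast genes, 3, 4, 6 and 1 had a mean of at least 1 in H82, H524 and H69 with dox and COR-L88 with TAS1440, and THY1 was listed at 0 in H82 with dox and COR-L88 with TAS1440. The 4 endothelial and blood cell genes found summed to at most 8.27 in every library. The part of cell state in the collagen results was not tested, and in bulk samples fewer cells of a type and less RNA per cell cannot be told apart.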

How the data were processed

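Bulk RNA-Seq was analysed in 69 libraries (60 human, 9 mouse), grouped by the labels into 23 groups of 3. Per the study's methods and labels, total RNA was made into stranded mRNA libraries and sequenced as read pairs, and the authors trimmed reads with Cutadapt, aligned them with STAR to hg19 or mm10, quantified genes with RSEM, normalised with TMM in edgeR and converted to RPKM. Tool versions are not given in the sources used here. The deposited values are log2(RPKM + 1). RPKM needs a gene length, and the length used could not be established, so levels of different genes are not compared. The size of a single read was estimated from low values above 0, over gene span in KP1 and over exons in human. Read totals are unknown.

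Genes were tested with limma 3.58.1 (R 4.3.3) on the deposited log2 values, with 1 mean per group, all groups of a line in the model, a variance trend, and genes kept that reached 1 in 3 or more of a line's libraries. A call needed an absolute difference of 1 or more and an adjusted p (Benjamini-Hochberg, across every gene tested) below 0.05. The script was tested on simulated data. Members and lists were chosen with earlier results of these data known. A member could be named if it was called in at least 1 comparison, reached a group mean of 3 or belonged to an adjacent pair, and values by library were to be given for up to 3 called members per class with the largest difference and for pair partners. Members that a sentence contrasts with these were added after their values were seen. Up to 3 called genes per pathway list were named in the same way. Alternatives were a pseudocount of 0.1, no filter, quantile normalization, centring, no variance trend, only the compared groups, leaving out each library and, chosen after seeing the data, KP1 values rescaled to exonic length. Tables were handled in Python 3.11.15 with pandas 2.3.3. Promoter windows came from RefSeq (GRCh38.p14) and gene coordinates from GRCh37 annotation. A member of the neuroendocrine marker list is not reported here and was left out of its sums. Columns of per-sample values left unused numbered 0.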

Additional observations from a re-analysis of the deposited data

Results flagged for a closer look

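The dox response of these members differed between REST KO and intact H82 cells by the interaction term in limma (REST KO minus intact, log2 scale). Among fibrillar genes the differences were 4.75 for COL5A1, 3.91 for COL1A1, 3.90 for COL5A3, 3.75 for COL3A1, 2.71 for COL24A1, 1.83 for COL2A1 and 1.22 for COL11A2. For some members the no-dox levels also differed. In intact and REST KO cells, COL1A1 means were 2.41 and 0.30 without and 6.79 and 8.58 with dox. Those of COL3A1 were 3.44 and 0 without and 10.56 and 10.87 with dox, while COL5A3 had a no-dox mean of 0.01 in both. Of the other classes, the differences were 5.41 for COL18A1, 3.44 for COL8A1, 3.32 for COL6A1, 3.16 for COL6A2, 2.67 for COL13A1, 2.55 for COL4A2, 2.44 for COL4A1 and -2.13 for COL4A4.

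Between STING KO and intact H82 cells the dox response differed by 2.25 for COL9A3, 1.47 for COL8A2, 1.21 for COL11A2 and -1.91 for COL2A1. Between STING KO and intact COR-L88 cells the TAS1440 response differed by -3.82 for COL17A1, -2.42 for COL16A1, -1.60 for COL11A1, -1.45 for COL8A2, -1.34 for COL6A1 and -1.18 for COL4A1.

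With N1ICD, 3 members moved in opposite directions in 2 lines, and the difference between lines was not tested. COL2A1 changed by 1.90 in H82 and -8.01 in H69, COL4A4 by 2.04 in H82 and -2.99 in H69, and COL23A1 by -2.48 in H82 and 1.39 in H524. The no-dox level of COL23A1 had itself moved from that of parental cells. Its parental, no-dox and dox means were 1.24, 5.29 and 2.81 in H82 and 1.53, 0.59 and 1.98 in H524.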

How the results depend on the processing

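Counts are collagen genes called. No paired analysis was possible because the library numbers in the labels run on from group to group, so that compared groups share none. With only the compared groups in the model the count was 8 in place of 13 for H82 STING KO against intact with dox, 6 for 11 for H82 no dox against parental, 3 for 0 for REST dox in H524, 4 for 9 for H524 N1ICD no dox against parental, 3 for 5 for H69 no dox against parental, 1 for 0 for KP1 TAS1440 plus GSI against DMSO, and 2 for 4 for the H82 STING KO difference of responses. At a pseudocount of 0.1 the count was 9 for H69 no dox against parental, 2 for the H82 STING KO difference and 3 for the COR-L88 STING KO difference. Rescaled KP1 values, with 11935 genes tested, gave 12, 13 and 1 for TAS1440 against DMSO, TAS1440 against TAS1440 plus GSI, and TAS1440 plus GSI against DMSO. The cause of these changes was not tested.

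Leaving out 1 library at a time, the counts ranged from 20 to 22 for N1ICD in H82, 24 to 25 in H82 REST KO, 16 to 19 in H82 STING KO, 22 to 26 in H524 and 23 to 24 in H69. They were 14 to 18 and 9 to 13 for REST KO and STING KO against intact H82 with dox. They were 9 to 14, 6 to 11, 0 to 0 and 3 to 6 for no dox against parental in H82, H524 N1ICD, H524 REST and H69, and 0 to 2 for REST dox in H524. In COR-L88 they were 15 to 18 for TAS1440, 8 to 13 against TAS1440 plus GSI, 11 to 13 for TAS1440 plus GSI against DMSO, 15 to 16 in STING KO and 7 to 12 for STING KO against intact. In KP1 they were 5 to 6, 5 to 7 and 0 to 0. The differences of responses gave 19 to 27 (H524), 13 to 19 (H82 REST KO), 2 to 5 (H82 STING KO) and 4 to 7 (COR-L88). A change of over 1.5 times came from library 34 for REST dox in H524 (2 without it), parental library 46 or 47 for H69 no dox against parental (3 without either), and library 7, 55 or 56 for the H82 STING KO difference (2 without any 1 of them).

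COL5A2 in H82 no dox against parental (0.03) changed sign under quantile normalization (-0.0242) and centring (-0.0224) and ranged from -0.29 to 0.35 with 1 library left out. COL4A2 in the COR-L88 STING KO difference (-0.17) was 0.44 at a pseudocount of 0.1 and ranged from -0.46 to 0.15. Neither was called. The pseudocount bears on every member listed at or near 0 in a group, and with 3 libraries a group a difference that was not called may still exist.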
